A study of Homo sapiens with 4 samples.

Results

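The enzymes described here carry fatty acids into mitochondria and peroxisomes, oxidise them, pass the electrons to the respiratory chain and interconvert ketone bodies. They are 32 genes taken from a list of named enzymes and matched by symbol to Ensembl identifiers, out of 62893 genes in the count tables. The rule names genes and uses no threshold on measured values, but the list was drawn up with earlier results of these data known. By site, 20 encode mitochondrial enzymes and 5 peroxisomal ones, 4 encode acyl-CoA synthetases, ECI2 and ACAD11 belong to both compartments, and PDK4 regulates fuel choice. Of the 32, 30 had enough reads to be compared.

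RNA sequencing was done on total RNA of Hep-G2 cells, an established human hepatoma line. One group carried an shRNA against FTO (TRCN0000246247), an enzyme that demethylates N6-methyladenosine in RNA, and its reference carried a scramble shRNA (SHC002). Both groups were at passage 21, each has 1 shRNA and 2 deposited tables, and the labels do not say whether the cells were a clone or a pool. Reads assigned to genes numbered 20220271 and 20706611 in the shFTO tables and 20047409 and 20474554 in the scramble tables.

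The 2 tables of a group are called runs, because they differed by no more than sampling noise. The chi-square per degree of freedom was 1.01 between the shFTO runs over 13674 genes (chi-square test, p = 0.142) and 1.02 between the scramble runs over 13359 genes (p = 0.0648). Between runs of different groups it was 118 to 120. The runs of a group were therefore pooled and counted as 1 sample, so the comparison is of 1 sample with 1 sample, without a replicate check, and no p-value of a gene is given. FTO was 5.32-fold lower in shFTO (95% counting interval 4.63 to 6.13), at 5.42 and 5.83 CPM in shFTO and 31.4 and 28.5 CPM in scramble. CPM is a gene's read count scaled to a library of 1000000 reads, with library sizes adjusted by TMM, a trimmed mean of the genes' log ratios. All 8 hepatocyte markers examined were detected, and their summed level was 16374 to 16453 CPM in shFTO and 35023 to 35036 CPM in scramble. All 8 were lower in shFTO, and their part in the results below was not tested. Of the markers of fibroblasts, endothelial cells and leukocytes, 3 of 6 (COL3A1, DCN and LUM), 2 of 5 (PECAM1 and KDR) and 2 of 5 (PTPRC and CD3E) had no read in any table. The summed levels of those 3 lists were 6.44 to 7.06, 0.28 to 0.32 and 0.82 to 0.84 CPM in shFTO and 23.1 to 23.7, 0.37 to 0.47 and 0.98 to 1.69 CPM in scramble. The fibroblast sum held PDGFRB, at 3.60 and 3.64 CPM in shFTO and 22.95 and 23.5 CPM in scramble, whereas COL1A1, named after its values were seen, had 2.85 and 3.37 CPM in shFTO and 0.11 and 0.16 CPM in scramble.

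Long-chain fatty acids are first joined to coenzyme A by acyl-CoA synthetases, and the carnitine shuttle then moves the acyl chain across the inner mitochondrial membrane. In the matrix each turn of beta-oxidation runs through an acyl-CoA dehydrogenase, a hydratase, a hydroxyacyl-CoA dehydrogenase and a thiolase, and the electrons reach ubiquinone through the electron transfer flavoprotein. Peroxisomes hold a parallel set of enzymes for very long, branched and dicarboxylic chains, whose first step is an oxidase that makes hydrogen peroxide. Hepatocytes are known for both routes and for turning the acetyl-CoA into ketone bodies during fasting.

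Promoter sequences are shown for the divergent gene pair HADHA and HADHB and for members at the ends of the range of differences, ACSL1 and CPT1A at the upper end and ACSL4 at the lower. They come from RefSeq (GRCh38.p14), a different build from the hg19 named for the tables, so they are not joined to any coordinate of the tables. HADHA and HADHB start 307 bases apart on opposite strands, and the stretch between them is chr2:26244689-26244882, given on the plus strand and ending 57 bases short of either start. The other 3 stretches are the 250 bases before a gene's start, on the minus strand: chr11:68844278-68844527 for CPT1A, chr4:184825969-184826218 for the most upstream of 5 listed ACSL1 starts, and chrX:109733258-109733507 for ACSL4. Capitals mark every match, on either strand, to GGGCGG (the GC box), CCAAT or AGGTCA, the core hexamer bound by PPAR-alpha and other nuclear receptors. GC boxes may overlap each other.
HADHA-HADHB shared: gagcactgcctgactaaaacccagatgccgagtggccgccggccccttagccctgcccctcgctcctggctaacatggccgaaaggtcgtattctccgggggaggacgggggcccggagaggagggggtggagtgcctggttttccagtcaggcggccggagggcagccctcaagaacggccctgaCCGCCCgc
CPT1A: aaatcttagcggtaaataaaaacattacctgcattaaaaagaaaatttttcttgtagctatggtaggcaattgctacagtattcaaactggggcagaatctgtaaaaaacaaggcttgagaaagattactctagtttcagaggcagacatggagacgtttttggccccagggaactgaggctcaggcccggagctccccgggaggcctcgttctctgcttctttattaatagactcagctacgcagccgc
ACSL1: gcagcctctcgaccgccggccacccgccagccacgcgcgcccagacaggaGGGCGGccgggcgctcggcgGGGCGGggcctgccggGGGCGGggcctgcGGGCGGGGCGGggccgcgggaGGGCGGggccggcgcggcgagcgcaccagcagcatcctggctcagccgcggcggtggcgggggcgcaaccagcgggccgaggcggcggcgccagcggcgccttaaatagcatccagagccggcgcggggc
ACSL4: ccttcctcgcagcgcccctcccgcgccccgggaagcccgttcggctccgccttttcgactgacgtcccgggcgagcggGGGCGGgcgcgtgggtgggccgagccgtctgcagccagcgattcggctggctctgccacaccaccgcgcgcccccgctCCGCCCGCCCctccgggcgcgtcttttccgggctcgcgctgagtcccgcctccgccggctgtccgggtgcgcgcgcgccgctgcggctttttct

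The ACSL1 stretch held 6 GC boxes and 83.6% G and C, and the ACSL4 stretch 3 GC boxes and 77.2% G and C. The HADHA-HADHB stretch held 1 GC box, and the CPT1A stretch, with 44.4% G and C, held none of the 3 motifs. RefSeq windows, which run from 250 bases before to 50 after a start, were found for 26 of the 32 members, 38 windows in all. GGGCGG was in 71.1% of the members' windows and in 45% of all 35116 windows, CCAAT in 21.1% and 34.6%, and AGGTCA in 5.26% and 13.8%. These shares count windows, so a gene with several starts, such as ACSL1 with 5, counts more than once. By gene, at least 1 window held GGGCGG in 23 of the 26, CCAAT in 8 and AGGTCA in 2. The 2 member genes with AGGTCA were ACSL5 and ACAD10. These matches are descriptions of the letters in the windows.

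Across the 30 members with enough reads, 8 were at least 1.5-fold lower and 2 at least 1.5-fold higher in shFTO, where 1.5-fold was the threshold for a difference. The same threshold was passed by 13.4% of all 13767 genes tested in the lower direction and by 11.4% in the higher one. At 2-fold, 3 members were lower and 1 higher, against 6.19% and 5.18% of all genes, and at a log2 threshold of 0.32 the members numbered 15 and 5, against 24% and 22.8%. The members past 1.5-fold on the lower side were ACSL3, ACSL4, ACSL5, CPT2, ECI2, ACAA1, ETFDH and BDH1, and the higher ones ACSL1 and CPT1A. The median log2 ratio of shFTO over scramble was -0.35 over the 30 members and 0.01 over all tested genes. Of the 30, 22 were below 0, as were 49.1% of all tested genes. For 29 of the 30 the runs of the groups did not overlap, against 81.6% of all genes tested, and HADH was the exception. With plain library sizes in place of TMM the median over all tested genes was 0.18, and 9.48% of genes were at least 1.5-fold lower and 17.5% higher. Without allowing for that shift, the members' counts were then 5 lower and 3 higher. CPT2, ECI2 and BDH1 fell short of 1.5-fold at that scaling, with log2 ratios of -0.49, -0.54 and -0.47, and ACAD10 passed it with 0.61. CPT2 also fell short without scramble run 1, at -0.58. ETFB came to pass 1.5-fold on the lower side with DESeq2 size factors (-0.588) and without a filter on low counts (-0.594). It also passed without scramble run 2 (-0.603) and without shFTO run 1 (-0.588). ACADVL passed without scramble run 2, at -0.588. Here, as in any bulk sample, fewer cells with a transcript and less of it per cell cannot be told apart.

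**Figure D1:**
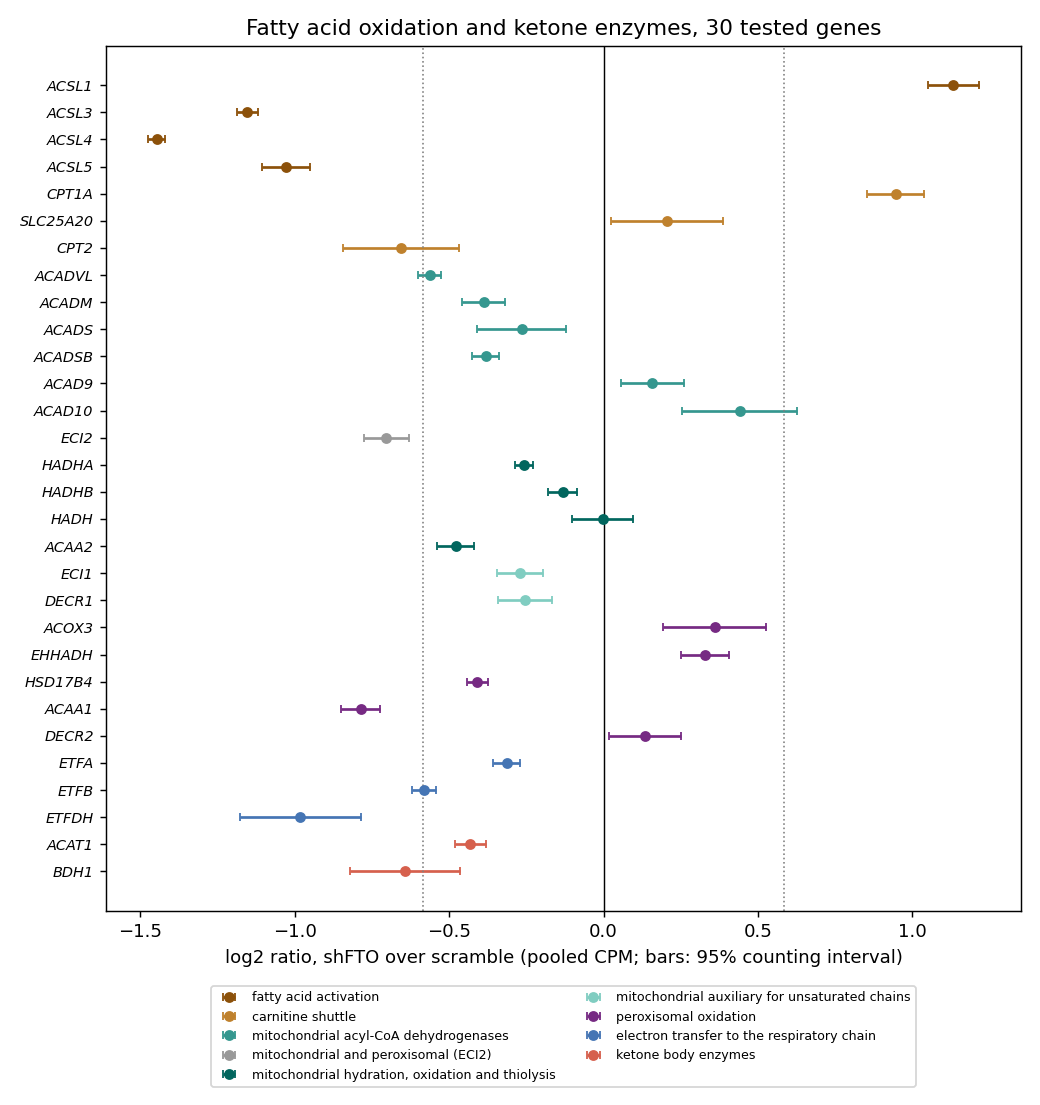
Log2 ratio of shFTO over scramble (horizontal axis) for each of the 30 tested genes, coloured by role. Bars are 95% counting intervals on pooled reads, and dotted lines mark 1.5-fold. ACSL1 and CPT1A lie beyond the upper line, and ACSL3, ACSL4, ACSL5, CPT2, ECI2, ACAA1, ETFDH and BDH1 beyond the lower one, with TMM scaling.

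The quasi-likelihood test of edgeR (Benjamini-Hochberg adjusted p) called 21 of the 30 lower and 8 higher, against 33.4% and 33.2% of all genes tested. HADH was not called. Its spread is that of near-identical runs, so these calls set library against library and say nothing of culture-to-culture variation. Without shFTO run 1 it called 5 members higher. Folds and their exact Clopper-Pearson intervals, which cover counting error only, are used below. Of the 32 members, 18 share annotated exonic bases with another gene of the tables, 8 of them with a gene on the same strand, and no strand setting is given in the sources used here.

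The acyl-CoA synthetases, which activate fatty acids, held both ends of the members' range, with ACSL1 higher and the other 3 lower. ACSL1 (ENSG00000151726), the main isozyme of liver and fat tissue, had 97.4 and 93.2 CPM in shFTO against 43.5 and 43.5 CPM in scramble. It was 2.19-fold higher (2.07 to 2.32). ACSL4 (ENSG00000068366), which prefers arachidonic acid and other polyunsaturated chains, had 327 and 325 CPM in shFTO against 900.1 and 879 CPM in scramble, the highest read level among the members there. It was 2.73-fold lower (2.67 to 2.78), the largest difference among the 30 with TMM scaling.

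ACSL3 (ENSG00000123983), an isozyme of the endoplasmic reticulum and lipid droplets, had 230.04 and 233 CPM in shFTO and 514 and 516 CPM in scramble. It was 2.22-fold lower (2.17 to 2.28). ACSL5 (ENSG00000197142), found on mitochondria and the endoplasmic reticulum, had 49.96 and 48.5 CPM in shFTO and 97.9 and 103 CPM in scramble, 2.04-fold lower (1.93 to 2.15). In all 4 genes the runs of a group lay close together and the groups were far apart.

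Summed over the 4 genes, the synthetases had 705 and 700.2 CPM in shFTO and 1556 and 1541 CPM in scramble. Their make-up was compared per length, as reads per kilobase of the longest annotated coding transcript. ACSL1 made up 16.9% and 16.3% of that sum in the shFTO runs and 3.54% and 3.57% in the scramble runs. ACSL4 made up 43.7% and 43.8% in shFTO and 56.5% and 55.6% in scramble, and remained the first of the 4 in every run. ACSL3 held 28.9% and 29.5% in shFTO and 30.3% and 30.6% in scramble, and ACSL5 10.5% and 10.3% in shFTO and 9.69% and 10.2% in scramble. The ratio of ACSL1 to ACSL4 within a library, which does not depend on the scaling of library sizes, was 5.98-fold higher in shFTO (95% counting interval 5.63 to 6.35). It sets the members with the highest and lowest log2 ratios against each other, so it is the largest such contrast among the tested members. This pair and those below were chosen with their values known.

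**Figure D2:**
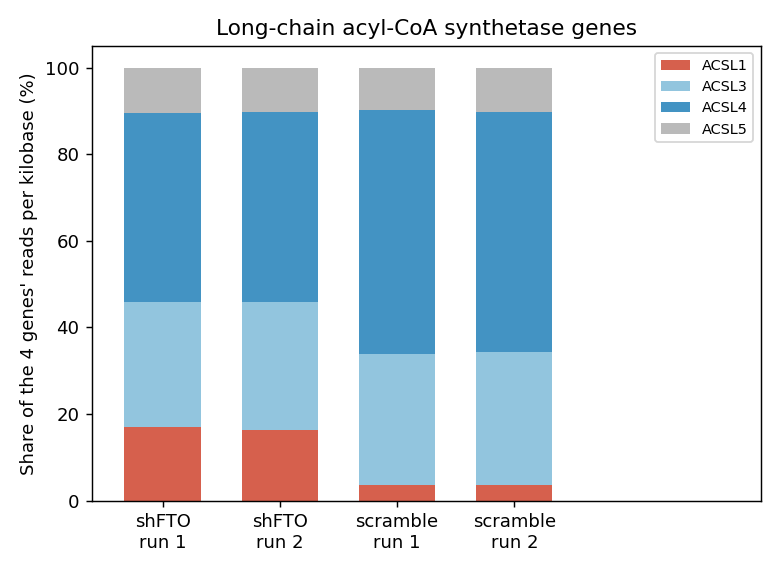
Share of each of the 4 acyl-CoA synthetase genes in their summed reads per kilobase (vertical axis, percent), 1 bar per run. The ACSL1 segment is 16.3% to 16.9% in the shFTO runs and 3.54% to 3.57% in the scramble runs.

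The 2 transferase genes of the carnitine shuttle, CPT1A and CPT2, differed in opposite directions. CPT1A (ENSG00000110090), the malonyl-CoA-inhibited transferase of the outer membrane that controls entry of long chains, had 69.7 and 71.0 CPM in shFTO and 37.2 and 35.9 CPM in scramble. It was 1.93-fold higher (1.81 to 2.05). CPT2 (ENSG00000157184), which rebuilds acyl-CoA on the matrix side, had 8.96 and 9.79 CPM in shFTO and 15.6 and 13.97 CPM in scramble, and was 1.57-fold lower (1.38 to 1.79). CPT2 shares 1151 exonic bases with an antisense gene, so its reads may include others.

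SLC25A20, the carnitine-acylcarnitine translocase between them, had 13.5 and 13.5 CPM in shFTO and 11.3 and 12.2 CPM in scramble, a ratio of 1.15 (1.02 to 1.31). Its difference was below 1.5-fold. Per length, CPT1A stood at 4.60 and 4.29 times CPT2 in the shFTO runs and at 1.41 and 1.52 times in the scramble runs. That ratio was 3.03-fold higher in shFTO (2.63 to 3.50).

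**Figure D3:**
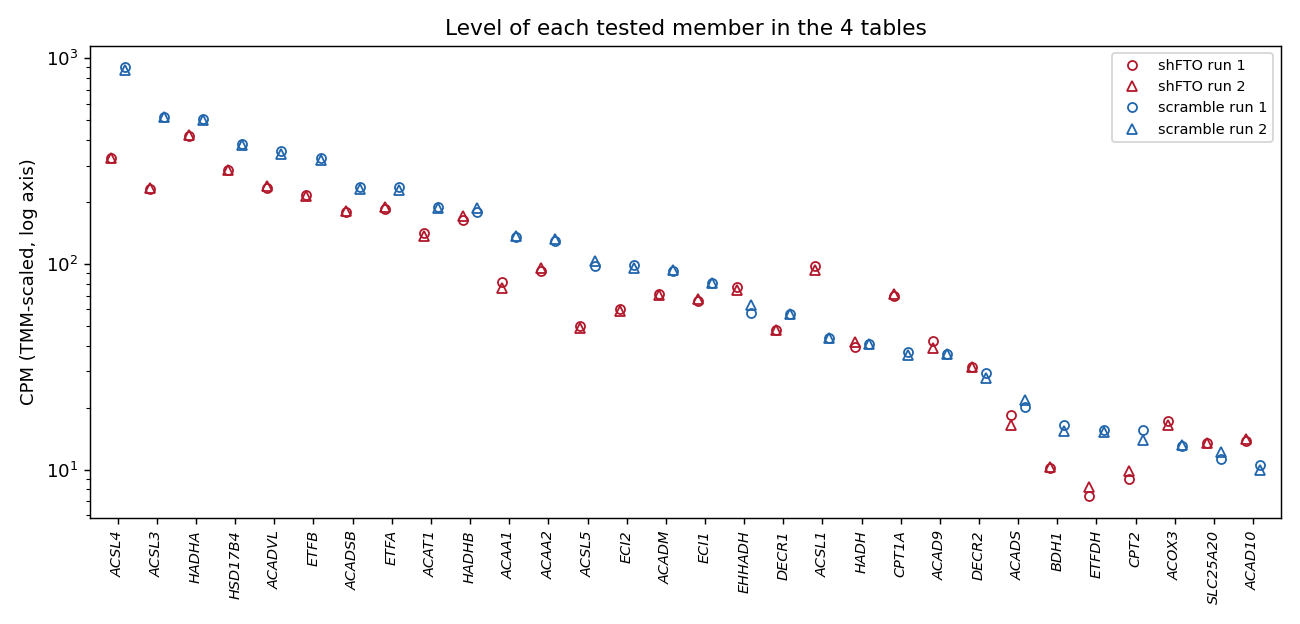
TMM-scaled CPM (vertical log axis) of the 30 tested genes in each run, ordered by the pooled scramble level, with shFTO runs drawn left of scramble runs. Runs of a group nearly coincide, HADH overlaps between groups, and ACSL1 and CPT1A stand out as higher in shFTO.

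None of the 6 tested acyl-CoA dehydrogenases of mitochondria differed by 1.5-fold, with 4 log2 ratios below 0 and 2 above. ACADVL (ENSG00000072778), which acts on the longest chains at the inner membrane, had 232 and 238 CPM in shFTO and 352 and 342 CPM in scramble. It was 1.48-fold lower (1.44 to 1.52), just short of the threshold. ACADM, the medium-chain enzyme, had 71.2 and 70.2 CPM in shFTO and 91.96 and 93.04 CPM in scramble, a log2 ratio of -0.39 (-0.46 to -0.32). ACADSB, which acts on short branched chains of isoleucine breakdown, had 179 and 179.9 CPM in shFTO and 236 and 231 CPM in scramble, 1.30-fold lower (1.26 to 1.34).

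ACADS, the short-chain enzyme, had 18.4 and 16.5 CPM in shFTO and 20.04 and 21.8 CPM in scramble, 1.20-fold lower (1.09 to 1.33). ACAD9, known mainly as an assembly factor of respiratory complex I, had 42.3 and 38.9 CPM in shFTO and 36.3 and 36.4 CPM in scramble, a ratio of 1.12 (1.04 to 1.20). ACAD10 had 13.7 and 14.03 CPM in shFTO and 10.5 and 9.99 CPM in scramble, a ratio of 1.36 (1.19 to 1.55). The enzymes of the main spiral thus had log2 ratios of -0.56, -0.39 and -0.27 from the longest to the shortest substrate, while ACAD9 and ACAD10 were at 0.16 and 0.44. Per length, ACADVL made up 53.3% and 54.5% of the reads of the 6 genes in shFTO and 59.5% and 58.7% in scramble.

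None of the later mitochondrial steps differed by 1.5-fold. HADHA (ENSG00000084754) and HADHB (ENSG00000138029) encode the alpha and beta subunits of the trifunctional protein, which carries out the hydratase, dehydrogenase and thiolase steps for long chains. HADHA had 418 and 420.1 CPM in shFTO and 504 and 498 CPM in scramble, 1.20-fold lower (1.17 to 1.22). HADHB had 163 and 169.7 CPM in shFTO and 178 and 186 CPM in scramble, 1.10-fold lower (1.06 to 1.13), and the sign of its log2 ratio turned to 0.03 with plain library sizes. The HADHA to HADHB ratio per length was 1.81 and 1.75 in the shFTO runs and 1.99 and 1.88 in the scramble runs. It differed by a log2 of -0.13 (-0.18 to -0.07), which is 1.09-fold lower in shFTO (1.05 to 1.13) for the divergent pair whose shared stretch is printed above.

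HADH, the dehydrogenase for medium and short chains, had 39.4 and 41.7 CPM in shFTO and 40.7 and 40.6 CPM in scramble. The interval of its ratio, 0.93 to 1.07, included 1, and its log2 ratio was 0.16 with plain library sizes. ACAA2, the matrix thiolase, had 92.03 and 95.5 CPM in shFTO and 129 and 132 CPM in scramble, 1.39-fold lower (1.34 to 1.45). The auxiliary enzymes for unsaturated chains were close to each other: ECI1, an enoyl-CoA isomerase, was 1.21-fold lower (1.15 to 1.27), and DECR1, the mitochondrial dienoyl-CoA reductase, 1.19-fold lower (1.12 to 1.27). ECI1 had 66.3 and 67.7 CPM in shFTO and 80.7 and 80.9 CPM in scramble. DECR1 had 47.4 and 47.8 CPM in shFTO and 56.9 and 56.8 CPM in scramble.

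All 3 genes that take the electrons onward were lower, and the last of them by the most. ETFA (ENSG00000140374) and ETFB (ENSG00000105379) encode the subunits of the electron transfer flavoprotein. ETFA had 185 and 189 CPM in shFTO and 235 and 229 CPM in scramble, 1.24-fold lower (1.20 to 1.28). ETFB had 216 and 214 CPM in shFTO and 326 and 318 CPM in scramble. Its log2 ratio was -0.58 (-0.62 to -0.54), just short of the threshold with TMM scaling, and its interval spans the threshold. ETFB shares 337 exonic bases with another gene on the same strand. ETFDH (ENSG00000171503), the dehydrogenase that hands the electrons to ubiquinone, had 7.42 and 8.20 CPM in shFTO and 15.6 and 15.3 CPM in scramble. It was 1.97-fold lower (1.72 to 2.26) and shares 490 exonic bases with PPID on the opposite strand. Per length, ETFDH was the lowest of the 30 members in shFTO and the fourth lowest in scramble. The ETFA to ETFB ratio per length was 1.33 and 1.37 in shFTO and 1.12 and 1.12 in scramble, a log2 difference of 0.27 (0.21 to 0.33).

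The 5 peroxisomal members did not share a direction, with 3 log2 ratios above 0 and 2 below. ACOX3 (ENSG00000087008), an oxidase for branched chains, had 17.1 and 16.4 CPM in shFTO and 13.01 and 13.1 CPM in scramble, a ratio of 1.28 (1.14 to 1.44). EHHADH (ENSG00000113790), the L-bifunctional enzyme and a known PPAR-alpha target, had 76.7 and 74.9 CPM in shFTO and 57.6 and 62.97 CPM in scramble, a ratio of 1.26 (1.19 to 1.33). DECR2, the peroxisomal dienoyl-CoA reductase, had 31.7 and 31.4 CPM in shFTO and 29.6 and 27.9 CPM in scramble, a ratio of 1.10 (1.01 to 1.19). DECR2 shares 572 exonic bases with NME4 on the same strand.

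HSD17B4 (ENSG00000133835), the D-bifunctional enzyme, had 286 and 285 CPM in shFTO and 381 and 378 CPM in scramble, and was 1.33-fold lower (1.30 to 1.36). ACAA1 (ENSG00000060971), the peroxisomal thiolase, had 81.1 and 76.2 CPM in shFTO and 135 and 136 CPM in scramble, and was 1.72-fold lower (1.65 to 1.80). It was the one peroxisomal member past 1.5-fold, and 1403 of its exonic bases are shared with DLEC1 on the opposite strand. Within the peroxisome the ratio of EHHADH to HSD17B4, the enzymes with like functions and opposite stereochemistry, was 0.20 in each shFTO run and 0.11 and 0.12 in the scramble runs per length, 1.67-fold higher (1.57 to 1.77).

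Set side by side, the 20 mitochondrial members had a median log2 ratio of -0.29, with 16 below 0, and the 5 peroxisomal members a median of 0.13, with 2 below 0. Their summed levels differed alike. The mitochondrial sum was 2035 and 2052 CPM in shFTO and 2583 and 2556 CPM in scramble, a log2 ratio of -0.33, and the peroxisomal sum was 493 and 484 CPM in shFTO and 616 and 619 CPM in scramble, a log2 ratio of -0.34. HSD17B4 held the largest part of the peroxisomal sum, and both HSD17B4 and ACAA1 were lower in shFTO. The median and the sum of the peroxisomal members differ in sign. The peroxisomal median is that of DECR2, the middle of 5 genes, and was -0.14 when ECI2 was counted as peroxisomal. Single peroxisomal log2 ratios ran from -0.79 to 0.36, all inside the mitochondrial range of -0.98 to 0.95.

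At matched steps the peroxisomal gene was compared with its mitochondrial counterpart within each library, which removes the scaling of library sizes. The pairs were chosen after their values were seen. The ACOX3 to ACADVL ratio was 1.90-fold higher in shFTO (1.69 to 2.13) and DECR2 to DECR1 1.31-fold higher (1.19 to 1.45). EHHADH to HADHA was higher in shFTO by 0.59 on the log2 scale (0.50 to 0.67). In the other direction, ACAA1 to ACAA2 was 1.24-fold lower (1.17 to 1.31) and HSD17B4 to HADHA 1.11-fold lower (1.08 to 1.15). ECI2 (ENSG00000198721), an isomerase with forms in both compartments, had 60.1 and 59.1 CPM in shFTO and 99.05 and 95.1 CPM in scramble, and was 1.63-fold lower (1.55 to 1.71). The ECI2 to ECI1 ratio was 1.35-fold lower (1.26 to 1.45). ECI2 shares 1242 exonic bases with C6orf201 on the opposite strand.

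**Figure D4:**
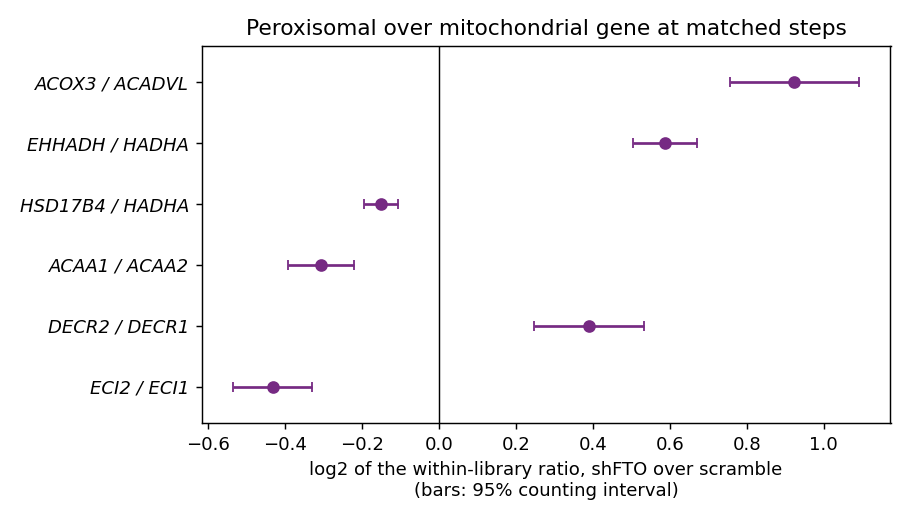
Log2 difference, shFTO over scramble, of the within-library ratio of a peroxisomal gene (or ECI2, found in both compartments) to its mitochondrial counterpart (horizontal axis), with 95% counting intervals. ACOX3, EHHADH and DECR2 lie above 0, and HSD17B4, ACAA1 and ECI2 below.

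Both ketone body members were lower. ACAT1 (ENSG00000075239), the mitochondrial acetoacetyl-CoA thiolase, had 141 and 137 CPM in shFTO and 188 and 187 CPM in scramble, 1.35-fold lower (1.30 to 1.40). BDH1 (ENSG00000161267), which interconverts acetoacetate and beta-hydroxybutyrate, had 10.2 and 10.3 CPM in shFTO and 16.6 and 15.5 CPM in scramble, 1.56-fold lower (1.38 to 1.77).

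ACAD11 and PDK4 were too low to compare. PDK4, the kinase that shuts off pyruvate dehydrogenase in fasting, had 0 reads in both shFTO runs and 1 and 0 in the scramble runs. ACAD11, a dehydrogenase of very long chains, had 0 and 1 reads in shFTO and 0 and 0 in scramble. The treatment of reads in exons shared between genes is not given in the sources used here, so its count may not reflect its transcript. A count of 0 allows up to 3 reads.

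Per length, the order of the members was led by HADHA at 138 CPM per kilobase in shFTO, with ACADVL at 101 and HSD17B4 at 99.2. In scramble ACSL4 and HADHA led at 167 and 165, with ACADVL at 149 and HSD17B4 at 132. ACSL4 was thus the seventh of 30 in shFTO and the first in scramble, and ACSL1 the seventeenth in shFTO and the 23rd in scramble. At the lower end stood ETFDH, BDH1 and CPT2 in shFTO, at 2.38, 2.89 and 3.03, and ACAD10, BDH1 and ACOX3 in scramble, at 2.51, 4.51 and 4.57. These levels depend on the transcript length chosen, while the differences do not.

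Other genes of fatty acid oxidation and ketone metabolism were described from a list of 30, of which 26 were tested. In shFTO, 6 were at least 1.5-fold lower and 2 higher, with a median log2 ratio of -0.29. For this list and those below, the shares over all tested genes are 13.4% lower and 11.4% higher, with a median of 0.01. PDK1, a hypoxia-inducible relative of PDK4, was 3.18-fold lower (2.95 to 3.44) and PDK3 1.59-fold lower (1.38 to 1.84). ACOX2, the peroxisomal oxidase of bile acid intermediates, was 2.71-fold lower (2.41 to 3.05), and PHYH, which starts phytanic acid breakdown, 1.90-fold lower (1.76 to 2.06). SLC22A5, the carnitine importer, was 1.64-fold higher (1.42 to 1.89).

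Of 12 fatty acid uptake proteins 8 were tested, 3 were at least 1.5-fold lower and 1 higher, against 13.4% and 11.4% of all tested genes. FABP1, the liver fatty acid binding protein, had 73.3 and 75.5 CPM in shFTO and 2467 and 2477 CPM in scramble. The fatty acid translocase CD36 was 2.19-fold higher (1.81 to 2.67), and the transporters SLC27A1 and SLC27A5 had log2 ratios of -0.59 (-0.81 to -0.36) and -0.60 (-0.79 to -0.40).

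PPAR-alpha is the nuclear receptor that turns on many of these enzymes in fasting liver. Of 15 genes for PPAR-alpha, its partners and other targets, 12 were tested, 6 were at least 1.5-fold lower and 1 higher, against 13.4% and 11.4% of all tested genes, with a median log2 ratio of -0.58. The coactivator PPARGC1A had 16.4 and 15.4 CPM in shFTO and 36.9 and 36.4 CPM in scramble, and its relative PPARGC1B was 1.86-fold higher (1.51 to 2.29). CREB3L3, a fasting-induced factor, was 3.32-fold lower (2.92 to 3.80), ANGPTL4 1.74-fold lower (1.42 to 2.13), and the lipid droplet coat PLIN2 had 237 and 237 CPM in shFTO and 675 and 662 CPM in scramble. PPARA itself, named after its value was seen, had 38.4 and 41.4 CPM in shFTO and 47.3 and 48.4 CPM in scramble.

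Genes of the organelles themselves differed by less than the synthetases. Of 17 peroxisome biogenesis genes 15 were tested, 2 were at least 1.5-fold lower and 0 higher, with a median log2 ratio of -0.34. The 2 of 15 that were lower are a share near the 13.4% of all tested genes. PEX11A, which acts in peroxisome division, was 1.64-fold lower (1.43 to 1.87) and PEX13, part of the import pore, 1.57-fold lower (1.46 to 1.69). Of 13 genes of mitochondrial import and the outer membrane 12 were tested, with a median of -0.16. TOMM20, an import receptor, was 1.62-fold lower (1.58 to 1.65), and no other gene of that list passed 1.5-fold in either direction.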

How the data were processed

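RNA sequencing of Hep-G2 cells gave 4 tables, 2 for shFTO and 2 for scramble. The authors deposited raw counts of reads for each Ensembl gene, with no normalization. TopHat2 2.1.1, HTSeq 0.6.0 and build hg19 are named per the submitters' processing notes. Total RNA came from a Trizol extraction followed by DNase and a column clean-up, per the labels' protocols. The annotation release, strand setting and read assignment mode are not given in the sources used here. Groups come from the sample titles.

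Symbols were matched by Ensembl identifier for all 32 members. Transcript lengths and exon overlaps are from GENCODE 29, of another build, without coordinates. The 2 runs of a group were pooled. Folds are ratios of pooled CPM after TMM scaling (edgeR 4.0.16, R 4.3.3) among 13767 genes kept by filterByExpr, with exact 95% Clopper-Pearson intervals. Intervals of ratios between genes use the normal approximation on log counts. They cover counting error only, since reads without molecular identifiers are not independent molecules. edgeR's quasi-likelihood test (two-sided, Benjamini-Hochberg adjusted p under 0.05) was run on the 4 tables without a block. Alternatives were other scalings, filters, thresholds, DESeq2 1.42.0, the replicate block and leaving out each run. All members were named, with FTO and, from each context list, up to 4 genes each way past 1.5-fold with at least 5 CPM. The members and lists were chosen with earlier results of these data known. Some genes that these lists take are not reported here.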

Additional observations from a re-analysis of the deposited data

How the results depend on the processing

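Counts of members at least 1.5-fold lower and higher were 8 and 2. Plain library size gave 5 lower, and medians of -0.12 for mitochondrial and 0.30 for peroxisomal members, against -0.29 and 0.13. A log2 threshold of 0.32 gave 15 and 5, and a 2-fold threshold 3 and 1, which follows from the thresholds. Counting ECI2 as peroxisomal reversed that median to -0.14. Leaving out each run gave 7 to 10 members lower and 2 higher, and medians of -0.32 to -0.30 and 0.09 to 0.17.

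edgeR called 21 members lower and 8 higher. The number higher was 5 without a filter on low counts and 5 with DESeq2, and the cause was not tested. Leaving out each run gave 21 lower and 5 to 7 higher. The samples share only a replicate number, with a correlation of same-numbered deviations of 0.00303 over 13767 genes. With the replicate block edgeR called 21 lower and 8 higher. Of 270 member log2 ratios under alternatives, 237 stayed inside the main counting interval, 33 moved out of it, and no member past 1.5-fold changed sign. Those that moved out did so only with plain library sizes or upper-quartile scaling, most of them with plain library sizes. The total over all alternatives therefore says little about the choice of scaling. The culture-to-culture spread is unknown.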
